A study of Mus musculus with 35 samples.

Results

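The genes described are 37 mouse genes of glucose transport, glycolysis, lactate handling and pyruvate oxidation in fat tissue. They were chosen by function, as a list of symbols, with earlier results of these data known. All 37 were found among the 18947 genes of the mRNA comparison. The study compared interscapular brown fat (iBAT), a tissue that burns fuel to make heat, with epididymal white fat (eWAT), a visceral store of lipid. Whole depots of untreated C57BL/6J male mice, labelled C57BL/6, were taken at 15 weeks of age, flash frozen and sequenced in 4 iBAT and 4 eWAT libraries. No genotype, allele or agent separated the groups. The sources used here do not give the housing temperature of these mice, and nothing says that the libraries came from separate animals, so p-values measure the spread between these libraries only. The other 27 of 35 samples (9 Argonaute CLIP and 18 miRNA samples) were not used.

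Glycolysis splits glucose into pyruvate in the cytosol. Pyruvate is then either reduced to lactate and exported, or carried into mitochondria and oxidised by the pyruvate dehydrogenase complex, which the pyruvate dehydrogenase kinases switch off by phosphorylation. Brown fat takes up much glucose when it is activated, and white fat uses glycolysis also to make the glycerol backbone of stored triglyceride. Many steps are catalysed by isoenzymes, the products of different genes with different tissue patterns.

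The authors' deposited table gives for each gene a base mean (the mean of normalized counts over the 8 libraries), a log2 fold change with its standard error (SE), a p-value and an adjusted p. No value of a single library was at hand. For a view of each tissue, the mean in iBAT and in eWAT was worked out from the base mean and the fold change with equal group sizes. These implied means assume that the deposited fold change is the ratio of the tissue means, and they carry no SD. They are not scaled for gene length, so the level of a gene is not compared with that of another gene. Sums over genes are given below as well, and in them long and abundant genes weigh more. A gene is said to be called where the adjusted p of the authors' deposited table is under 0.05. Fewer cells of a type and less RNA per cell cannot be told apart in such whole tissue.

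Most of the 37 genes were higher in brown fat. By the authors' deposited table, 25 were called higher in iBAT, 4 lower and 8 not called. Over all genes of the authors' deposited table, 20.9% were called higher, 27.1% lower and 48% in either direction. The median log2 fold change of the 37 genes was 1.62, against -0.10 over all genes of the authors' deposited table. Of the calls, 23 higher and 4 lower were at least 1 on the log2 scale, a size that 11% (higher) and 19.5% (lower) of all genes reached per the authors' deposited table. The genes called lower were Slc2a3, Aldoc, Eno2 and Pdk3, each in a family with another gene that was called higher. SEs ran from 0.12 to 0.48 on the log2 scale, and base means from 99.3 to 68631 with 31 of the 37 above the median of the authors' deposited table (342.8).

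**Figure D1:**
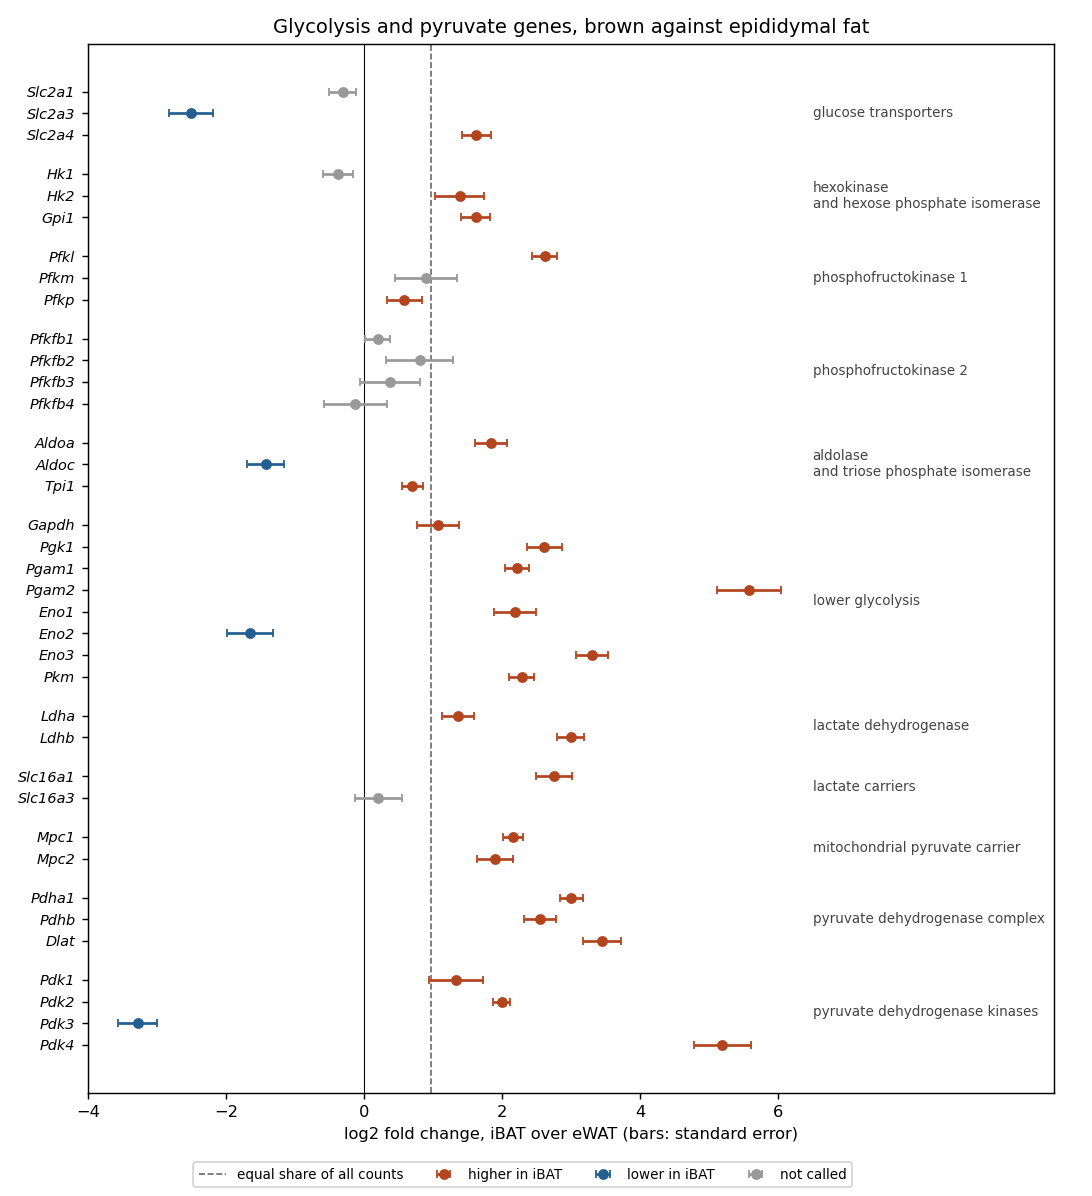
Log2 fold change of each gene, iBAT over eWAT, with its standard error as bars, grouped by step from glucose entry (top) to pyruvate dehydrogenase kinases (bottom), from the authors' deposited table. Pgam2 (5.58) and Pdk4 (5.19) lie farthest to the right and Pdk3 (-3.28) farthest to the left; the dashed line at 0.97 marks where a gene takes the same share of all counts in both tissues.

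The scale matters for these values. The implied counts of all genes summed to 1.97 times as much in iBAT as in eWAT. The 13 mitochondrially encoded genes took 48.2% of the sum in iBAT and 10.9% in eWAT, and without them the ratio of the sums was 1.14. As a share of all counts, the 37 genes made up 1.36% in iBAT and 0.67% in eWAT. As a share of counts without the mitochondrially encoded genes they made up 2.63% and 0.756%. If fold changes are set relative to all counts, each falls by 0.97 on the log2 scale, the median of all genes moves to -1.07 and that of the 37 genes to 0.64, and 19 are called higher and 9 lower (Benjamini-Hochberg over all genes, p from fold change over SE). Relative to counts without the mitochondrially encoded genes each falls by 0.19, with 24 called higher and 6 lower. The share of all genes called was not worked out under either scaling, so these counts have no share to be read against. These scalings were chosen after seeing the data. Directions below are those of the authors' deposited table, and for the genes named and the medians given it is stated where the scaling to all counts turns or ends them.

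**Figure D2:**
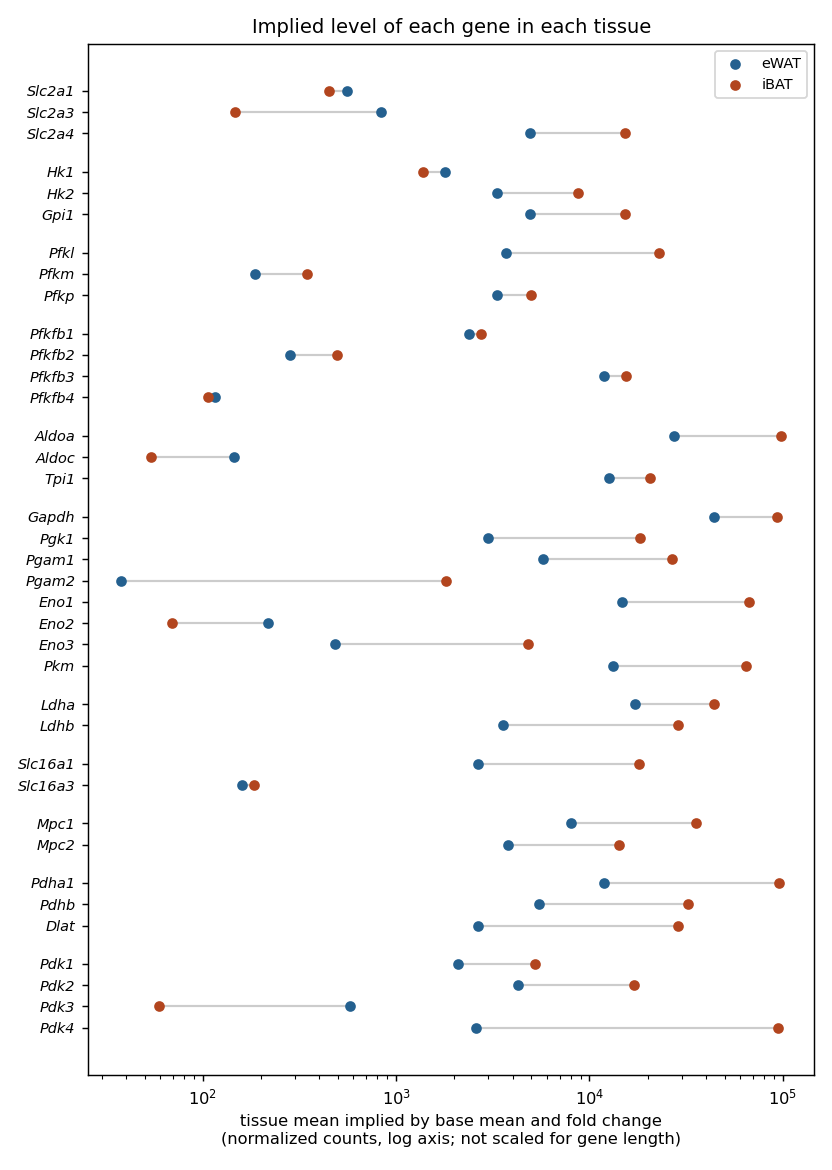
Mean normalized count of each gene in eWAT (blue) and iBAT (orange) implied by the base mean and the fold change, on a log axis, with 1 line per gene; values are not scaled for length and have no error bars, since no library values were at hand. The widest gaps are those of Pgam2 (37.7 against 1801) and Pdk4 (2579 against 94343).

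Promoters were looked at for a motif long known in this pathway, the core of the hypoxia response element, ACGTG on either strand. It lies inside the palindromic E-box CACGTG, so every E-box match is also a match of the core. RefSeq promoter windows on GRCm38.p6, from 250 bases before to 50 after the start site, were found for 35 of the 37 genes (55 windows). Slc2a3 and Slc2a4 had none. The core was in a window of 18 of the 35 genes (51.4%), and in 26.4% of 13216 genes of the mRNA table with a window and 21.8% of all 27025 genes with one. The median GC content was 61% in the windows of the 37 genes, 59% in those of the table and 52.7% in all windows. In windows counted singly, the core was in 40% of those of the 37 genes, in 22.9% of the 16639 of the table and in 19.6% of all 32851. The E-box was in a window of 6 of the 35 genes (17.1%), against 10.5% of the genes of the table. In windows counted singly these shares were closer, at 10.9% against 8.92%. The extended binding motif of single nuclear receptors, AAGGTCA on either strand, was in 3 of 35 (8.57%) against 4.27%. By window it was in 5.45% against 3.57%. The motifs, like the genes, were chosen with earlier results of these data known.

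By call, the core was in 10 of 24 matched genes called higher, in 2 of 3 called lower and in 6 of 8 not called, and these shares were not tested against each other. The following windows show these cases, each 5′ to 3′ on the strand of the gene with the core in capitals. They are Ldha (called higher, chr7:46845554-46845853, plus strand), Slc16a1 (called higher, chr3:104638414-104638713, plus strand), Slc2a1 (not called, chr4:119108495-119108794, plus strand) and Pdk3 (called lower, chrX:93832101-93832400, minus strand).
Ldha: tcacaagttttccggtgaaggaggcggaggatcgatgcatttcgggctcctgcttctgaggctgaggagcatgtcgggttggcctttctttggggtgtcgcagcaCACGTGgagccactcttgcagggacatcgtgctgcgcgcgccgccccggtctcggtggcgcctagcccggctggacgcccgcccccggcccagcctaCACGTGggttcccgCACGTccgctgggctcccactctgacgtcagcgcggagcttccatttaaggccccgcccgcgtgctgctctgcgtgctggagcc
Slc16a1: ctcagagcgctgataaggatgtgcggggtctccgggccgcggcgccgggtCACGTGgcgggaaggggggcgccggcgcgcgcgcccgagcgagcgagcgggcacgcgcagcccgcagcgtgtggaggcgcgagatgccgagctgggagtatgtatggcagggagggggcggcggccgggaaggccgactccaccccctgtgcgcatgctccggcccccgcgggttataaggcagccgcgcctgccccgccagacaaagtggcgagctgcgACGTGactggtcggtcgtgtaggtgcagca
Slc2a1: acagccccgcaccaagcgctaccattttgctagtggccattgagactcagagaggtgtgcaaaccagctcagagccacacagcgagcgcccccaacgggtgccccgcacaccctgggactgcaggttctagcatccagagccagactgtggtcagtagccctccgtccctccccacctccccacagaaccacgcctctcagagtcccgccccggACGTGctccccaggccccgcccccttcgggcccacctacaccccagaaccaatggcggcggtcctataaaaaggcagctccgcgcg
Pdk3: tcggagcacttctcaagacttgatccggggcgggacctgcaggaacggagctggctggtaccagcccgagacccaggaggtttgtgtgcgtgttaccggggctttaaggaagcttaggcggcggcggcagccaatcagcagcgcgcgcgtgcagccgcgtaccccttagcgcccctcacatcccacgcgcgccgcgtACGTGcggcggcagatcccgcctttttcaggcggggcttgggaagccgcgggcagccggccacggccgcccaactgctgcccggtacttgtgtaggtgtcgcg
The Ldha window holds 5 matches counted on both strands, that of Slc16a1 3, and those of Slc2a1 and Pdk3 1 each. In Slc2a1 the match begins 36 bases before the start site and in Pdk3 53 bases before it. A match is a run of letters and not a measured binding site.

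Glucose transporters differed in direction. Slc2a4 (ENSMUSG00000018566), which encodes the insulin-responsive transporter GLUT4 of fat and muscle, had an implied mean of 15192 normalized counts in iBAT and 4917 in eWAT. It was called higher in iBAT at a log2 fold change of 1.63 ± 0.21 (SE, adjusted p = 7.28e-14) per the authors' deposited table, and was called higher relative to all counts too (0.65). Slc2a1, which encodes the widely expressed GLUT1, was not called at -0.31 ± 0.19 (adjusted p = 0.171), with a 95% interval from -0.69 to 0.07, per the authors' deposited table. It was called lower at -1.28 relative to all counts. Slc2a3, which encodes the high-affinity transporter GLUT3 of neurons and blood cells, was called lower at -2.50 ± 0.32 (adjusted p = 4.36e-15) per the authors' deposited table, with implied means of 146.8 in iBAT and 832.3 in eWAT. Macrophage markers, cells that can carry this transporter, were lower in iBAT in 14 of 15 cases, and their part in the Slc2a3 value was not tested.

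Hexokinases trap glucose as glucose 6-phosphate. Hk2, the insulin-regulated hexokinase of fat and muscle, was called higher at 1.38 ± 0.36 (adjusted p = 0.000143) per the authors' deposited table, with implied means of 8693 in iBAT and 3329 in eWAT. Relative to all counts its difference was 0.41 and not called (adjusted p = 0.307). Hk1, the widely expressed form, was not called at -0.37 ± 0.21 (adjusted p = 0.129) per the authors' deposited table, and was called lower at -1.35 relative to all counts. The next enzyme, glucose phosphate isomerase (Gpi1), was called higher at 1.62 ± 0.21 (adjusted p = 2.66e-14) per the authors' deposited table.

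Phosphofructokinase 1, the committed step of glycolysis, has liver, muscle and platelet subunits. The liver-type gene Pfkl was called higher at 2.62 ± 0.18 (adjusted p = 8.48e-47) per the authors' deposited table, from an implied 3714 in eWAT to 22786 in iBAT. The platelet-type gene Pfkp was higher by 0.58 ± 0.25 (adjusted p = 0.0359) per the authors' deposited table, a call that was lost at an adjusted p under 0.01 and turned to -0.39, not called, relative to all counts. The muscle-type gene Pfkm stood at 0.90 ± 0.44 (adjusted p = 0.0513) per the authors' deposited table and was not called. It passed (adjusted p = 0.0442) when genes with a base mean under 10 were left out of the adjustment, and turned to -0.07 relative to all counts.

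The 4 genes of phosphofructokinase 2, which makes and removes the activator fructose 2,6-bisphosphate, were all not called per the authors' deposited table. Pfkfb3, the form with high kinase activity, had implied means of 15488 in iBAT and 11924 in eWAT. Its log2 fold change was 0.38 ± 0.44 with a 95% interval from -0.48 to 1.24 per the authors' deposited table. Pfkfb1 was at 0.20 ± 0.18, Pfkfb2 at 0.80 ± 0.48 and Pfkfb4 at -0.12 ± 0.46 per the authors' deposited table. The intervals of Pfkfb2 (-0.14 to 1.75) and Pfkfb4 (-1.02 to 0.77) leave room for differences of about 1 on the log2 scale. Relative to all counts Pfkfb1 (-0.77) and Pfkfb4 (-1.10) were called lower, while Pfkfb2 (-0.17) and Pfkfb3 (-0.60) turned in sign without a call.

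Aldolase splits fructose 1,6-bisphosphate, and triose phosphate isomerase interconverts its products. Aldoa, the form of muscle and most tissues, was called higher at 1.84 ± 0.23 (adjusted p = 1.79e-14) per the authors' deposited table, with implied means of 98375 in iBAT and 27471 in eWAT. Aldoc, known from brain, was called lower at -1.43 ± 0.27 (adjusted p = 2.76e-07) per the authors' deposited table, with implied means of 53.9 and 144.8. Tpi1 was called higher at 0.70 ± 0.15 (adjusted p = 9.39e-06) per the authors' deposited table and turned to -0.27, not called, relative to all counts.

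Lower glycolysis, from glyceraldehyde phosphate to pyruvate, had 7 of 8 genes called higher and 1 lower, with a median of 2.25, per the authors' deposited table. Gapdh, often used as a reference gene, was called higher at 1.07 ± 0.31 (adjusted p = 0.000733) per the authors' deposited table. Gapdh was not called relative to all counts (0.09, adjusted p = 0.787 after that scaling). Relative to counts without the mitochondrially encoded genes it stayed called higher (0.88, adjusted p = 0.0114). The other genes called higher in this group were called higher relative to all counts too. Pgk1, phosphoglycerate kinase, stood at 2.61 ± 0.25 (adjusted p = 1.3e-24) and Pkm, pyruvate kinase of most adult tissues, at 2.28 ± 0.18 (adjusted p = 4.64e-36) per the authors' deposited table. The implied means of Pkm were 64723 in iBAT and 13307 in eWAT. The table holds 1 value for Pkm and does not separate its M1 and M2 splice forms.

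Phosphoglycerate mutase and enolase have muscle isoenzymes, and these had larger log2 fold changes than the widely expressed forms. Pgam2 (ENSMUSG00000020475, RefSeq GRCm38.p6 chromosome 11, 5801637 to 5803796), the muscle mutase, was called higher at 5.58 ± 0.46 (adjusted p = 5.53e-33) per the authors' deposited table. Its implied means were 1801 in iBAT and 37.7 in eWAT. Pgam1, the widely expressed mutase, was called higher at 2.22 ± 0.17 (adjusted p = 5.56e-37) per the authors' deposited table. The muscle enolase gene Eno3 was called higher at 3.31 ± 0.23 (adjusted p = 2.09e-45) and the widely expressed Eno1 at 2.18 ± 0.30 (adjusted p = 1.07e-12) per the authors' deposited table. Eno2, the enolase of neurons, was called lower at -1.65 ± 0.33 (adjusted p = 1.08e-06) per the authors' deposited table, from an implied 217 in eWAT to 69 in iBAT. Aldoc and Eno2 are both known from nerve tissue, whose markers were called higher in 5 and lower in 3 of 10 cases, and their part in these values was not tested. All 22 markers of skeletal muscle were called higher in iBAT as well, and their part in the values of Pgam2 and Eno3 was not tested. Gapdh and Pgam1 have processed pseudogenes and Eno1 has the near copy Eno1b, so reads could be shared among them in counting; Eno1b was not called at -0.11 ± 0.98 per the authors' deposited table.

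Lactate dehydrogenase interconverts pyruvate and lactate through subunits A and B, of which B is known from heart and other oxidative tissue. Ldhb was called higher at 3.00 ± 0.19 (adjusted p = 2.13e-52) per the authors' deposited table, with implied means of 28580 in iBAT and 3579 in eWAT. Ldha was called higher at 1.36 ± 0.23 (adjusted p = 1.54e-08) per the authors' deposited table, with implied means of 43823 and 17101. Relative to all counts Ldhb stayed called (2.02) and Ldha did not (0.38, adjusted p = 0.143).

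Lactate crosses the plasma membrane through monocarboxylate transporters. Slc16a1, which encodes MCT1, was called higher at 2.76 ± 0.26 (adjusted p = 8.41e-26) per the authors' deposited table, with implied means of 17986 in iBAT and 2662 in eWAT. Slc16a3, which encodes MCT4 of glycolytic cells, was not called at 0.21 ± 0.34 (95% interval -0.46 to 0.87) per the authors' deposited table, and was called lower at -0.77 relative to all counts (adjusted p = 0.0393). Inside the cell, Mpc1 and Mpc2 form the carrier that brings pyruvate into mitochondria. Mpc1 was called higher at 2.15 ± 0.14 (adjusted p = 1.69e-49) and Mpc2 at 1.90 ± 0.26 (adjusted p = 1.39e-12) per the authors' deposited table. Both genes stayed called relative to all counts.

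The pyruvate dehydrogenase complex turns pyruvate into acetyl-CoA, and its 3 listed subunit genes had the highest median of the steps at 3.00 per the authors' deposited table. Dlat, the acetyltransferase of the core, was called higher at 3.45 ± 0.28 (adjusted p = 4.18e-34) per the authors' deposited table. Pdha1, the alpha subunit that the kinases phosphorylate, was called higher at 3.00 ± 0.17 (adjusted p = 1.97e-70) and Pdhb, the beta subunit, at 2.55 ± 0.24 (adjusted p = 2.12e-26) per the authors' deposited table. The implied means of Pdha1 were 95154 in iBAT and 11865 in eWAT. All 3 stayed called higher relative to all counts, at 2.47, 2.03 and 1.57 for Dlat, Pdha1 and Pdhb.

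Genes of the kinases that inhibit this complex moved in both directions. Pdk4 (ENSMUSG00000019577, RefSeq GRCm38.p6 chromosome 6, 5483351 to 5496278), the kinase induced by fasting and fatty acids, was called higher at 5.19 ± 0.41 (adjusted p = 7.51e-36) per the authors' deposited table. That is 36.6-fold, from an implied 2579 in eWAT to 94343 in iBAT. Pdk2, a widely expressed kinase, was called higher at 1.99 ± 0.12 (adjusted p = 2.79e-63) per the authors' deposited table. Pdk1, a target of hypoxia signalling, was called higher at 1.33 ± 0.39 (adjusted p = 0.000752) per the authors' deposited table and was not called relative to all counts (0.36, adjusted p = 0.408). Pdk3 (ENSMUSG00000035232) was called lower at -3.28 ± 0.28 (adjusted p = 8.82e-31) per the authors' deposited table, 9.7-fold lower, with implied means of 59.3 in iBAT and 574.9 in eWAT.

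Isoenzyme balance is free of the choice of scale, because the difference of 2 log2 fold changes in the same libraries does not change with scaling or gene length. The ratio of Slc2a4 to Slc2a3 was 17.5 times as high in iBAT as in eWAT, and that of Hk2 to Hk1 3.39 times as high. The same figure was 4.09 times for Pfkl to Pfkp, 9.62 times for Aldoa to Aldoc and 10.3 times for Pgam2 to Pgam1. The ratio of Ldhb to Ldha was 3.12 times as high in iBAT and that of Slc16a1 to Slc16a3 5.85 times. Among pairs of the 37 genes the widest shift was in the kinases, where the ratio of Pdk4 to Pdk3 was 354.9 times as high in iBAT and that of Pdk4 to Pdk2 9.19 times. The ratio of Mpc1 to Mpc2, partners in 1 carrier, differed by 1.19 times. These shifts have no error here, since the covariance of 2 genes needs library values, and they were not tested.

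**Figure D3:**
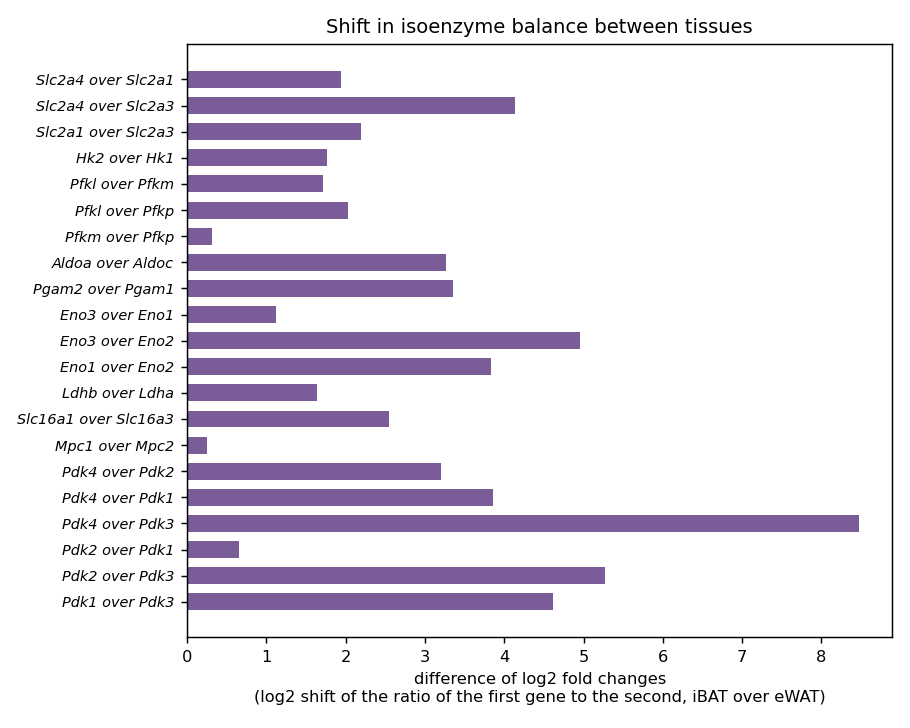
Difference of the log2 fold changes of 2 genes of a family, for all family pairs among the 37 genes except those of phosphofructokinase 2, which is the log2 shift of their ratio between iBAT and eWAT; the gene with the larger fold change is named first, so every bar points right by construction. Of the pairs drawn, Pdk4 over Pdk3 has the longest bar (8.47) and Mpc1 over Mpc2 the shortest (0.25).

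Genes next to glycolysis were described from 8 further lists (the plot of pathways around glycolysis). Over 118 measured genes of these lists, 58 were called higher and 20 lower per the authors' deposited table. Relative to all counts this became 32 higher and 55 lower, with no share of all genes called in that scaling at hand. Other isoenzymes and transporters of glycolysis had 2 of 20 called higher and 9 lower, with a median of -0.43, per the authors' deposited table. Those called lower with the largest fold change were Pklr, pyruvate kinase of liver and red cells (-10.18 ± 3.02, adjusted p = 7.79e-13), and Pgk2, the phosphoglycerate kinase of sperm (-8.21 ± 3.01, adjusted p = 3.42e-06), per the authors' deposited table. Ldhc, the lactate dehydrogenase of sperm, was called lower at -8.03 ± 3.00 (adjusted p = 6.04e-06) per the authors' deposited table. All 3 had low base means (55.4, 20 and 18.2), and their implied means in iBAT were under 1 normalized count. The SEs of these 3 genes were about 3 on the log2 scale per the authors' deposited table. Ldhd, a lactate dehydrogenase for D-lactate, was called higher at 1.85 ± 0.30 (adjusted p = 2.25e-09) per the authors' deposited table.

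Other pyruvate genes had 5 of 13 called higher and 2 lower, with a median of 0.37, per the authors' deposited table. The median turned to -0.60 relative to all counts. Me3, a mitochondrial malic enzyme, was called higher at 4.34 ± 0.25 (adjusted p = 9.14e-65) and Pdp2, a phosphatase that switches pyruvate dehydrogenase back on, at 2.90 ± 0.24 (adjusted p = 1.03e-32) per the authors' deposited table. Pdp1, the gene of another such phosphatase, was named after its value was seen. It was not called at -0.22 ± 0.18 (adjusted p = 0.321) per the authors' deposited table, and was called lower at -1.19 relative to all counts. Gpt2, the mitochondrial alanine aminotransferase, was called lower at -2.88 ± 0.21 (adjusted p = 1.07e-43) per the authors' deposited table. The remaining subunits of the pyruvate dehydrogenase complex, named after their values were seen, were Dld (2.63 ± 0.14) and Pdhx (2.25 ± 0.20), both called higher per the authors' deposited table.

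Shuttles that carry the reducing equivalents of glycolysis into mitochondria had 7 of 9 genes called higher and 1 lower, with a median of 1.78, per the authors' deposited table. Gpd2 (4.37 ± 0.35, adjusted p = 2.07e-35) and Gpd1 (4.14 ± 0.22, adjusted p = 8.23e-76), the mitochondrial and cytosolic enzymes of the glycerol phosphate shuttle, led them per the authors' deposited table. Slc25a13, an aspartate-glutamate carrier, was called lower at -2.54 ± 0.49 (adjusted p = 1.79e-07) per the authors' deposited table. Glycogen genes had 17 of 25 called higher and 2 lower (Pygb at -0.55 and Gaa at -0.39), with a median of 1.46, per the authors' deposited table, and the median was 0.49 relative to all counts. Ppp1r3a, a glycogen-targeting subunit of protein phosphatase 1 known from muscle, stood at 6.54 ± 0.38 (adjusted p = 3.42e-64) per the authors' deposited table. Ppp1r3g, of the same family, stood at 6.53 ± 3.62 at a low base mean (7.83) by the authors' deposited table, and its call was lost with p from fold change over SE (adjusted p = 0.14) and relative to all counts (adjusted p = 0.174).

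The pentose phosphate pathway had 4 of 8 genes called higher, with Tkt (2.71 ± 0.37) and Taldo1 (1.30 ± 0.21) at the top, and H6pd lower at -1.09 ± 0.19 per the authors' deposited table. Its median of 0.52 turned to -0.45 relative to all counts, where Taldo1 was not called (0.32, adjusted p = 0.171). In gluconeogenesis 2 of 6 were called higher and 2 lower, with a median of -0.13, per the authors' deposited table, and the median was -1.10 relative to all counts. Pck1, which in fat feeds glycerol synthesis, was higher at 1.55 ± 0.30 and Fbp2 at 1.41 ± 0.29, while Fbp1 was lower at -3.11 ± 0.69 and G6pc at -1.72 ± 0.91, per the authors' deposited table. Neither Pck1 (0.58, adjusted p = 0.0831) nor Fbp2 (0.44, adjusted p = 0.176) was called relative to all counts. The call of G6pc was lost with p from fold change over SE. Insulin signalling to glucose uptake had 7 of 18 called higher and 2 lower, with a median of 0.33, per the authors' deposited table. The median turned to -0.64 relative to all counts. Tbc1d4, a brake on GLUT4 traffic that insulin releases, was higher at 1.44 ± 0.21 and the kinase gene Akt2 at 1.24 ± 0.20, with Pik3cb (-0.97 ± 0.28) and Tbc1d1 (-0.91 ± 0.30) lower, per the authors' deposited table. Akt2 was not called relative to all counts (0.27, adjusted p = 0.237), while Tbc1d4 was (0.46, adjusted p = 0.0392).

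Transcription regulators tied to glycolysis had 14 of 19 called higher and 1 lower, with a median of 1.25, per the authors' deposited table, and of 0.27 relative to all counts. Ppara, a nuclear receptor of fatty acid use, was at 5.52 ± 0.17 (adjusted p = 4.11e-217) and Esrrg at 3.83 ± 0.55 (adjusted p = 3.12e-12) per the authors' deposited table. Vhl, which marks hypoxia-inducible factors for decay, was called lower at -0.84 ± 0.17 (adjusted p = 5.04e-06) per the authors' deposited table. Egln1 and Egln3, genes of the same decay pathway, were named after their values were seen. Both were called higher, at 1.94 ± 0.13 and 1.44 ± 0.27, per the authors' deposited table. Relative to all counts Egln1 stayed called (0.96) and Egln3 did not (0.47, adjusted p = 0.117). Decay of these factors was not measured. Hif1a, named after its value was seen because its motif was searched, was not called at 0.17 ± 0.30 (adjusted p = 0.656) per the authors' deposited table, and was called lower at -0.80 relative to all counts (adjusted p = 0.0127). Epas1 and Arnt, also genes of hypoxia-inducible factors, were likewise named after their values were seen. Per the authors' deposited table Epas1 was called higher at 1.08 ± 0.17 (adjusted p = 1.06e-09) and Arnt was not called at 0.46 ± 0.27 (adjusted p = 0.144). Relative to all counts neither was called (Epas1 0.10, adjusted p = 0.584, and Arnt -0.52, adjusted p = 0.0889).

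**Figure D4:**
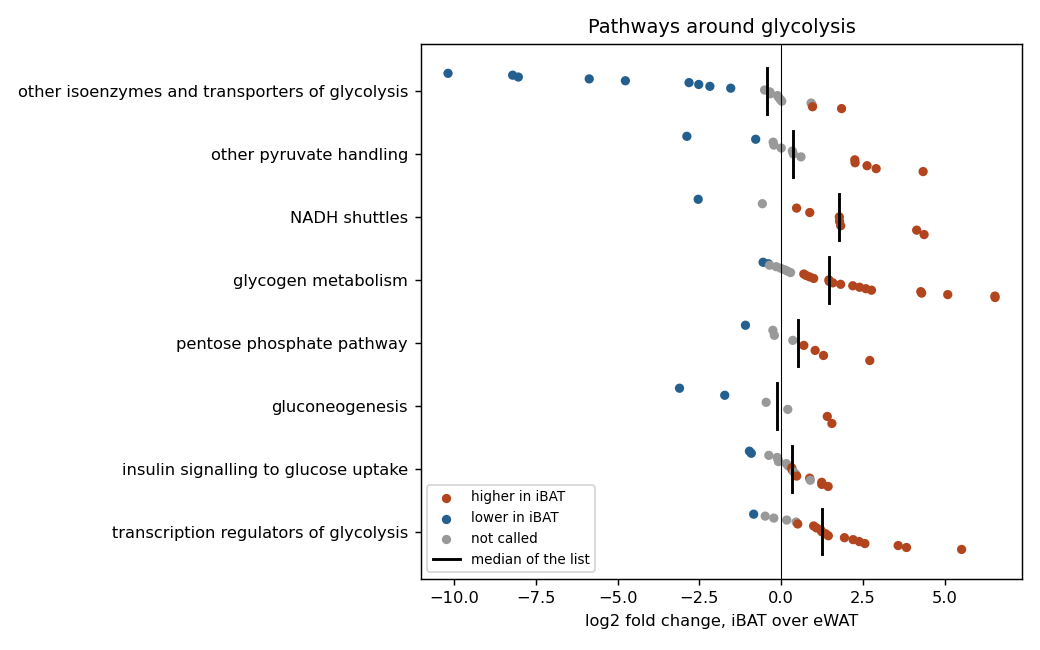
Log2 fold change, iBAT over eWAT, of every measured gene in 8 lists next to glycolysis (points, coloured by call) with the median of each list (black bar), from the authors' deposited table. Shuttle genes, glycogen genes and transcription regulators lie mostly right of 0 (medians 1.78, 1.46 and 1.25), and other isoenzymes mostly left (median -0.43).

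The direction of the fold changes was set from known marker genes, and lists of cell type markers were then described. Ucp1 (15.87) and Cidea (9.58) of brown adipocytes were positive and Wt1 (-6.80) and Lep (-2.77) of white visceral fat negative per the authors' deposited table, and on this basis a positive value was taken to mean higher in iBAT, since the header does not state the direction. Brown adipocyte markers, which include Ucp1 and Cidea, were called higher in 12 of 13 cases per the authors' deposited table. All 22 skeletal muscle markers were called higher, with a median of 6.94, per the authors' deposited table. Their implied means summed to 208808 in iBAT and 3877 in eWAT, a ratio of 53.9, and Myh4, the fast myosin, stood at an implied 0.22 in eWAT. Among members known from muscle, the ratio was 47.8 for Pgam2, 9.90 for Eno3 and 1.87 for Pfkm (not called). The part of muscle in these ratios was not tested. In eWAT 7 of 8 epididymis markers and 9 of 9 mesothelial markers were higher (called lower in iBAT) per the authors' deposited table. The mesothelial markers include Wt1, which was used to set the direction. Macrophage markers summed to an implied 21829 in iBAT and 95701 in eWAT, with Mmp12 (-4.19) and Itgax (-2.58) lowest per the authors' deposited table. Lymphocyte markers were called lower in 7 of 12 cases and fibroblast markers in 11 of 11 per the authors' deposited table. Markers of Schwann cells and neurons had 5 of 10 called higher and 3 lower, with S100b at 5.67 and the neuronal gene Rbfox3 at -7.67, per the authors' deposited table. Endothelial markers had 3 of 11 called higher and 4 lower, and erythrocyte markers 1 of 8 and 2, per the authors' deposited table. The part of these cell types in the values of the 37 genes was not tested.

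**Figure D5:**
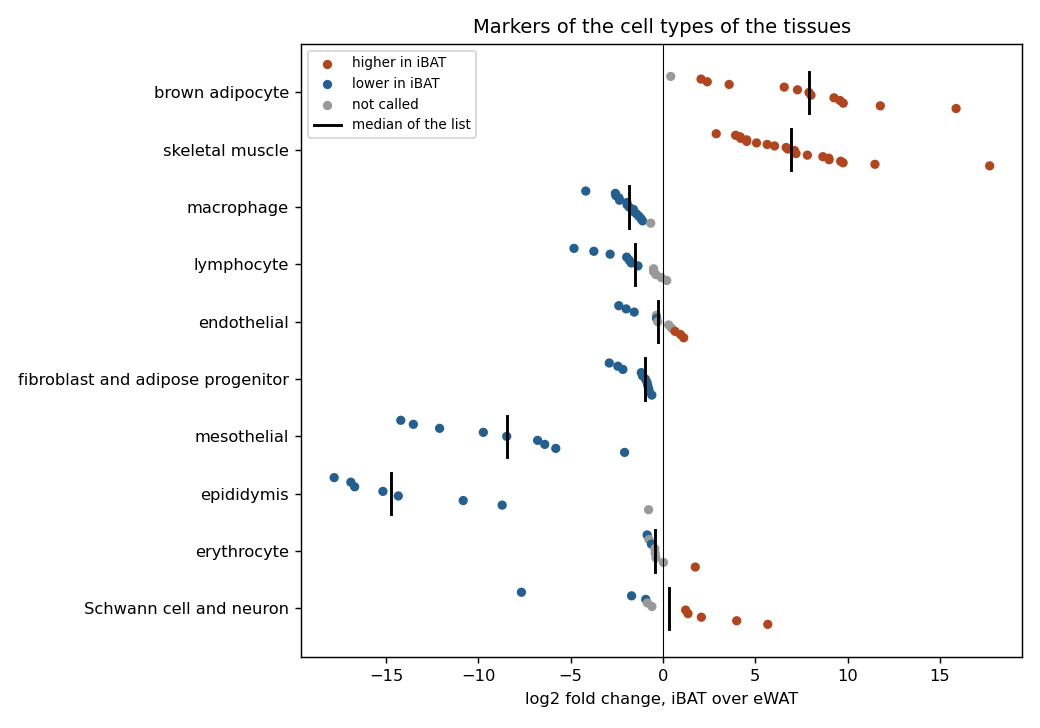
Log2 fold change, iBAT over eWAT, of cell type markers (points, coloured by call) with the median of each list (black bar), from the authors' deposited table. Brown adipocyte (median 7.90) and skeletal muscle markers (6.94) lie far right, mesothelial (-8.47) and epididymis markers (-14.76) far left.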

How the data were processed

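RNA of 4 iBAT and 4 eWAT samples was sequenced as stranded total RNA libraries, per the labels' protocols. Tools and builds listed without roles in the submitters' processing notes are DESeq, DESeq2, kallisto 0.45.0, GRCm38 and mm10. The base mean is a signal deposited by the authors, taken here as the mean normalized count over the 8 libraries. Log2 fold changes and SEs are log2 values from the authors, and p-values and adjusted p-values were deposited by them with no test named. Depth per library is unknown. Symbols came from Ensembl IDs (18758 of 18947 matched).

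From these, Python 3.11.15 (pandas 2.3.3, scipy 1.17.1) computed implied tissue means, counts of calls, 95% normal intervals, medians and motif matches; the adjustment was tested on simulated data. For all 37 genes the deposited p was smaller than that of fold change over SE. Members, lists and motifs were chosen with earlier results of these data known. Named genes were all 37 members and, of every other list, up to 2 called genes with the largest fold change in each direction. Family members and the genes used to set the direction were added. Alternatives were other p-values, centring, thresholds, a base mean minimum of 10 and 2 scalings. miRNA and CLIP samples were not used.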

Additional observations from a re-analysis of the deposited data

How the results depend on the processing

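The counts of 25 higher and 4 lower were 25 and 4 with p from fold change over SE and after centring on the median of all genes, and 24 and 4 at an adjusted p under 0.01. With a minimum size of 1 on the log2 scale they were 23 and 4, and with a base mean of at least 10 they were 26 and 4. Under the first 2 settings all 37 genes kept direction and call. At the minimum size, 11% of all genes were called higher and 19.5% lower. For the other settings of this paragraph the share of all genes called was not worked out. Their counts have no share to be read against. Phosphofructokinase 1 went from 2 to 1 gene called higher at an adjusted p under 0.01, at the minimum size and under both scalings. Aldolase and isomerase went from 2 to 1 at the minimum size and relative to all counts. Glycogen genes called lower went from 2 to 1 after centring, and those of gluconeogenesis and erythrocytes from 2 to 1 after centring and with p from fold change over SE.

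Relative to all counts, 9 members were called lower, the members' median was 0.64, and the other pathway lists had 32 higher and 55 lower. The share of all genes called in this scaling was not worked out. Calls there became 2 lower among glucose transporters, 1 higher and 1 lower among hexokinase and isomerase genes, 2 lower in phosphofructokinase 2, 1 higher in lactate dehydrogenase and 1 lower in lactate carriers. Signs turned for Pfkm (-0.075), Pfkp (-0.39), Pfkfb1 (-0.77), Pfkfb2 (-0.17), Pfkfb3 (-0.60), Tpi1 (-0.27) and Slc16a3 (-0.77). This follows from the subtraction of 0.97 from every fold change. Without mitochondrially encoded genes in the sum, 2 glucose transporters (Slc2a1 at -0.50 newly) and 1 hexokinase gene (Hk1 at -0.57) were called lower, and Pfkp lost its call (0.39).

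No paired analysis was possible because the mRNA table holds no values per library, and for the same reason no replicate was left out. Shares within isoenzyme families, with or without length scaling, were not run, since no transcript lengths were at hand; ratios between tissues took their place. With library depth unknown, the SE sets the precision, and it was widest for Pfkfb2 (0.48).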
